A study of Mus musculus with 40 samples.

Results

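The 7 genes described here are the C/EBP family members Cebpa, Cebpb, Cebpd, Cebpe and Cebpg and the zinc finger repressor genes Gfi1 and Gfi1b. Around them, peaks of 2 histone marks were taken from 12 deposited peak lists, 1 for each of 6 genotypes and each mark. A peak belonged to a gene when the nearest start of a protein-coding transcript (mouse build mm10) was a start of that gene and lay within 50 kb. By that rule 599 of the 773134 peaks in all lists belonged to the 7 genes, 147 of 224171 for H3K27ac and 452 of 548963 for H3K4me1. The rule used gene positions only and no level of either mark.

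H3K27ac, acetylation of lysine 27 on histone H3, marks active promoters and enhancers, and H3K4me1, monomethylation of lysine 4, marks enhancers whether active or primed. Both were mapped by ChIPmentation, a chromatin immunoprecipitation in which the transposase Tn5 cuts the precipitated chromatin and adds the sequencing adapters, in haematopoietic stem and progenitor cells sorted from mice aged 21 days. Besides wild type there was Flt3-ITD, in which a tandem duplication keeps the receptor kinase FLT3 active; NUP98-HOXD13, which joins part of a nuclear pore protein to a homeodomain factor and is called the fusion below; Runx1-het, whose source names join Runxf and Vav; and 2 combinations, the double mutants below, labelled Flt3-ITD/NUP98-HOXD13 or Flt3-ITD/Runx1-het. The sources used here do not state the promoters that drive the transgenes, the exact Runx1 allele or the number of mice per sample. The 39 samples with a mark came as 3 per group, or 4 for NUP98-HOXD13 in H3K27ac and for Flt3-ITD/NUP98-HOXD13 in either mark. Each group gave 1 pooled list, so no spread between samples was measured, no test between groups could be made, and a difference below is a difference between pooled lists.

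C/EBP proteins are leucine zipper factors that bind DNA as dimers. C/EBPα is needed for the step from multipotent progenitors to granulocyte and monocyte progenitors, C/EBPβ acts when granulocytes are made in demand, as in infection, and C/EBPε drives late granulocyte maturation and the genes of the secondary granules. C/EBPδ is induced in inflammation, and C/EBPγ, which lacks an activation domain, serves mainly as a dimer partner. GFI1 represses its targets through recruited demethylase and deacetylase complexes and is required for neutrophil production, while its relative GFI1B acts mainly in the erythroid and megakaryocyte lineages.

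The bases just upstream are shown for 4 of these genes, those whose RefSeq entry left a long enough stretch upstream of every protein-coding start. Their promoters carried H3K27ac very differently: those of Cebpb and Cebpg had it in every list, and those of Cebpa and Gfi1b had it in none. The stretches come from RefSeq (GRCm38.p6, the build of the lists), each read on the gene's strand. Each ends at the base before the gene's most upstream protein-coding start in the GENCODE annotation. Distances below are from that start. For Cebpg the RefSeq start (chr7:35056566) lies a few bases further downstream. The stretches are chr7:35119043-35119292 (plus strand, Cebpa), chr2:167688665-167688914 (plus, Cebpb), chr7:35056574-35056816 (minus, Cebpg) and chr2:28621983-28622232 (minus, Gfi1b). Capitals mark a match to a motif.
Cebpa: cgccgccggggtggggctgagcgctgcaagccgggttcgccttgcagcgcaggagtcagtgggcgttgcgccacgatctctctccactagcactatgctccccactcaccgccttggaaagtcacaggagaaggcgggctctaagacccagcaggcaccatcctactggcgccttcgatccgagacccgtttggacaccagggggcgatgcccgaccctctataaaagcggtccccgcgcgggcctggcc
Cebpb: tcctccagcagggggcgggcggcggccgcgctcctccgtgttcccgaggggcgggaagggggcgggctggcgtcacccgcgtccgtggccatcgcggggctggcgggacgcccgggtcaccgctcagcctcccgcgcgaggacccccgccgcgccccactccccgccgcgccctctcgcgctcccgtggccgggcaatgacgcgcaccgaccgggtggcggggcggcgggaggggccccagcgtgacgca
Cebpg: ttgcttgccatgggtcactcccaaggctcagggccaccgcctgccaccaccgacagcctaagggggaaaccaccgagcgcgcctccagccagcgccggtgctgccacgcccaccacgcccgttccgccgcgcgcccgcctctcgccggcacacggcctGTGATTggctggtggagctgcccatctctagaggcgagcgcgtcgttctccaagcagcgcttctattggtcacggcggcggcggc
Gfi1b: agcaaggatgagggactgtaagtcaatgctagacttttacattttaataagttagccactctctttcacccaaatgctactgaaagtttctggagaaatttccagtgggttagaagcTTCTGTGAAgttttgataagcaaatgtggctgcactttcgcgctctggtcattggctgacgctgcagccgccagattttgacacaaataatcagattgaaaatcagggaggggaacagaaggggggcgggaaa

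These stretches differed in base composition. GC content was 81.6% for Cebpb (41 CpG pairs in 250 bases), 70.4% for Cebpg (27 in 243 bases), 66.4% for Cebpa (22 in 250 bases) and 44.4% for Gfi1b (5 in 250 bases), against a mean of 53.2% over all RefSeq mouse promoters. The CpG-rich pair Cebpb and Cebpg carried H3K27ac throughout, yet the Cebpa promoter, also GC-rich, did not. Each of 7 motifs was searched on both strands, and its share among 32851 RefSeq promoters in windows of 250 bases is given beside it. The C/EBP motif TTGCNNAA occurs in 9.6% of promoters, and the GFI1 motif AATCAC in 9.1%. The RUNX motif is TGNGGT, in 40.1%, and the GATA motif is AGATAA, in 10.0%. The ETS motif AGGAAG is found in 29.5%, the STAT motif TTCNNNGAA in 7.0%, and the joint motif of HOX and PBX, TGATTNAT, in 2.8%. Only 2 matches were found in the 4 stretches, a GFI1 motif on the reverse strand of Cebpg, 85 to 80 bases upstream of the start, and a STAT motif in Gfi1b, 133 to 125 bases upstream. A match is a description of the letters and not a binding site. Other forms of these motifs were not searched, so a motif without a match here is not shown to be absent.

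Peaks of 1 mark that overlapped by at least 1 bp between lists were merged into union regions. A region counts as held by a list when any peak of that list overlapped it. The 7 genes had 44 of 71518 H3K27ac regions and 133 of 181776 H3K4me1 regions. Of the 44, 8 (18.2%) were held by all 6 lists, against 19.3% of all H3K27ac regions, and 18 (40.9%) by 1 list, against 52.6%. Of the 133, 18 (13.5%) were held by all 6 lists, against 9.97% of all H3K4me1 regions, and 62 (46.6%) by 1 list, against 49.3%. Gfi1 and Cebpb had most of the H3K27ac regions, 19 and 10, followed by Cebpa with 7, Cebpd with 4, Cebpe with 2 and Cebpg with 2. Gfi1b had none.

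The lists differed in length and in the width of their peaks, which bears on every count below. H3K27ac lists had 31978 (Runx1-het) to 43363 peaks (wild type), with a median width of 389 bp in wild type and 586 to 888 bp in the others. H3K4me1 lists had 72682 (Runx1-het) to 117039 peaks (Flt3-ITD/Runx1-het), and 7.23% of the NUP98-HOXD13 peaks reached a −log10 q of 5, against 17.5 to 34.0% in the other lists. As a check on the cells, H3K27ac lay at the promoters of 9 or 10 of 10 stem and progenitor markers in every list (Gata2 was the one without a peak in Flt3-ITD, Runx1-het and Flt3-ITD/Runx1-het), at 0 or 1 of 8 mature neutrophil markers, and at none of 8 genes not expressed in blood. Promoters of monocyte markers carried it for 1 to 3 of 8, of B cell markers for 2 to 3, of T and NK cell markers for 1 to 2, of erythroid markers for 1 to 2 and of megakaryocyte markers for 2 (Runx1-het) to 6 (wild type). Over all protein-coding genes the share was 39.9 to 46.6%. Their part in the differences below was not tested, and fewer cells of a type and less of a mark per cell cannot be told apart in such bulk chromatin.

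**Figure D1:**
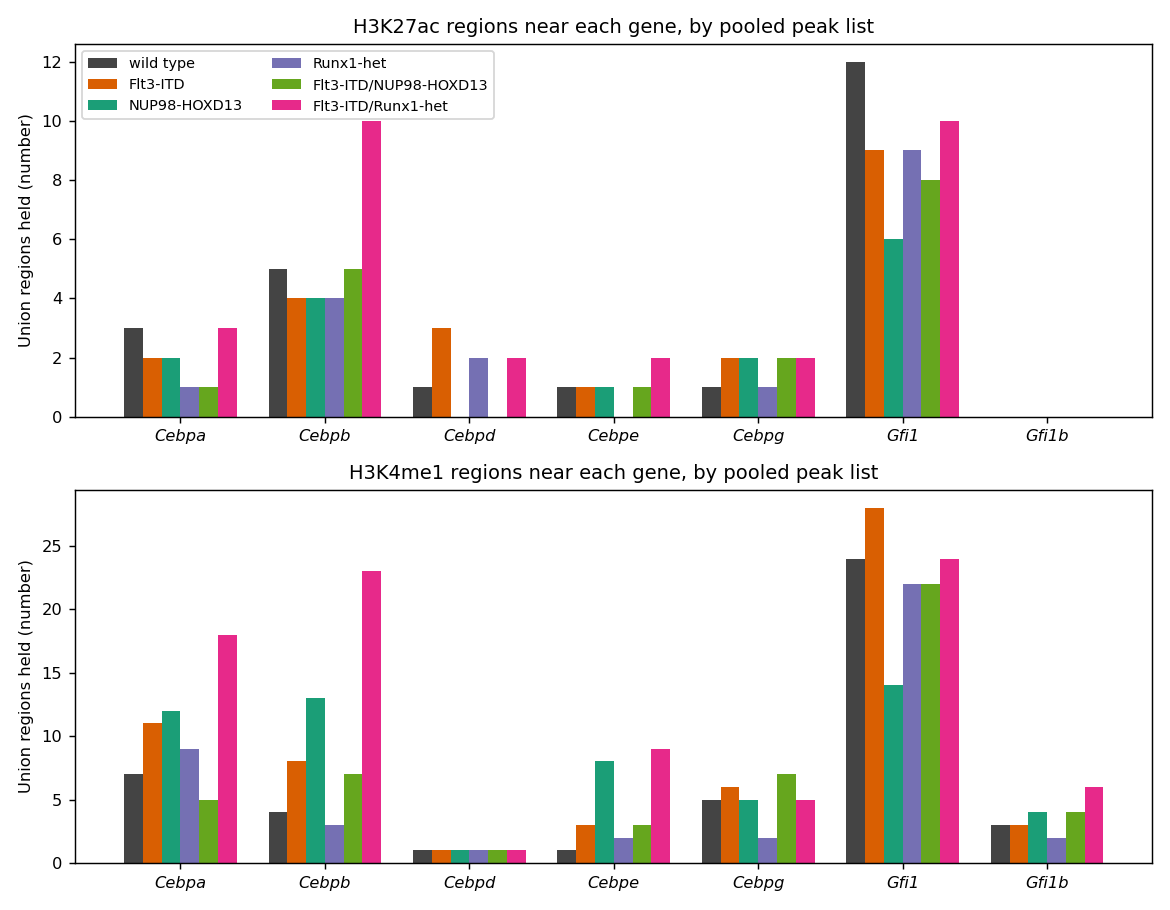
Number of union regions held near each of the 7 genes (vertical axis) in the pooled peak list of each genotype (bar colour), for H3K27ac above and H3K4me1 below. Gfi1 has the tallest bars for both marks in wild type (12 and 24), Flt3-ITD/Runx1-het stands highest at Cebpb (10 and 23), and Gfi1b has no H3K27ac bar.

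Over the 7 genes, the Flt3-ITD/Runx1-het list held most regions of both marks. NUP98-HOXD13 held the fewest for H3K27ac but was the third of the 6 lists for H3K4me1, and Runx1-het held the fewest H3K4me1 regions. For H3K27ac the numbers were 23 for wild type, 21 for Flt3-ITD, 15 for NUP98-HOXD13, 17 for Runx1-het, 17 for Flt3-ITD/NUP98-HOXD13 and 29 for Flt3-ITD/Runx1-het. As shares of the 44 regions these were 52.3%, 47.7%, 34.1%, 38.6%, 38.6% and 65.9%, where the same lists held 45.1%, 43.3%, 39.1%, 37.9%, 42.2% and 48.2% of all H3K27ac regions. The 7 genes thus stood above the whole list most in Flt3-ITD/Runx1-het and below it most in NUP98-HOXD13. For H3K4me1 the numbers were 45 for wild type, 60 for Flt3-ITD, 57 for NUP98-HOXD13, 41 for Runx1-het, 49 for Flt3-ITD/NUP98-HOXD13 and 86 for Flt3-ITD/Runx1-het. These were 33.8%, 45.1%, 42.9%, 30.8%, 36.8% and 64.7% of the 133 regions, where the same lists held 32.5%, 41.7%, 38.6%, 32.0%, 42.6% and 48.7% of all H3K4me1 regions. NUP98-HOXD13, a little below its whole list for H3K27ac, was thus a little above it for H3K4me1. With only the peaks of −log10 q of at least 5, NUP98-HOXD13 held 5 H3K4me1 regions, the fewest of the 6 lists, and wild type 27.

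Against wild type, a region was counted as gained when the mutant list held it and the wild-type list did not, and as lost in the reverse case. All 5 comparisons share the wild-type list. Near the 7 genes, the Flt3-ITD list gained 7 and lost 9 of the 30 H3K27ac regions in either list, 23.3% and 30.0%, where 27.6% and 30.4% of all regions were gained and lost. NUP98-HOXD13 gained 2 and lost 10 of 25, 8% and 40.0%, against 24.4% and 34.5% of all regions. Runx1-het gained 5 and lost 11 of 28, 17.9% and 39.3%, against 23.7% and 36.0%. In these unfiltered lists the 3 single mutants had more lost than gained regions, but only NUP98-HOXD13 kept that direction under every setting tried. In lists of equal length Flt3-ITD gained 8 and lost 4, and Runx1-het gained 7 and lost 5. With only the peaks of −log10 q of at least 5, Flt3-ITD gained 5 and lost 1, and Runx1-het gained 3 and lost 2. In NUP98-HOXD13 the gained regions made up 16.7% of those that differed (95% exact binomial interval 2.09 to 48.4%, counting error only), where over all regions they made up 41.4%.

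Flt3-ITD/NUP98-HOXD13 gained 4 and lost 10 of 27 H3K27ac regions, 14.8% and 37%, against 26.9% and 31.7% of all regions, but 7 and 6 in lists of equal length. Flt3-ITD/Runx1-het gained 11 and lost 5 of 34, 32.4% and 14.7%, against 33.1% and 28.5%. The gained share near the 7 genes in Flt3-ITD/Runx1-het was thus close to the whole list, and the lost share was lower.

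Each double mutant was also set against its single mutants, lists that differ by the added allele. With Flt3-ITD added to Runx1-het, 17 regions were gained and 5 lost of 34, 50% and 14.7%, against 37.6% and 20.5% of all H3K27ac regions. The gained regions made up 77.3% of those that differed (interval 54.6 to 92.2%), against 64.7% over all regions, which lies inside that interval. With Flt3-ITD added to NUP98-HOXD13, 5 were gained and 3 lost of 20, 25% and 15.0%, against 24.8% and 18.9%, and with starts within 25 kb 1 was gained and 3 lost. With the fusion added to Flt3-ITD, 4 were gained and 8 lost of 25, 16.0% and 32.0%, against 23.5% and 25.6%, and with Runx1-het added to Flt3-ITD, 13 were gained and 5 lost of 34, 38.2% and 14.7%, against 30.2% and 22.3%. At a −log10 q of at least 5 the latter comparison turned, to 3 gained and 5 lost.

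H3K4me1 regions near the 7 genes were gained more often than lost against wild type in all mutants but Runx1-het. Flt3-ITD gained 27 and lost 12 of 72, 37.5% and 16.7%, against 40.5% and 23.7% of all H3K4me1 regions. NUP98-HOXD13 gained 27 and lost 15 of 72, 37.5% and 20.8%, against 39.7% and 28.4%, and Runx1-het gained 16 and lost 20 of 61, 26.2% and 32.8%, against 31.9% and 33.0%. Flt3-ITD/NUP98-HOXD13 gained 19 and lost 15 of 64, 29.7% and 23.4%, against 41.7% and 23.6%. Flt3-ITD/Runx1-het gained 56 and lost 15 of 101, 55.4% and 14.9%, against 48.6% and 23.0%. The gains therefore followed those of the whole lists, with Flt3-ITD/Runx1-het above and Flt3-ITD/NUP98-HOXD13 below. With only the peaks of −log10 q of at least 5, losses outnumbered gains in all 5 mutants. Gained regions then made up 30.0% of those that differed for Flt3-ITD (69.2% without the threshold), 7.69% for NUP98-HOXD13 (64.3%), 21.1% for Flt3-ITD/NUP98-HOXD13 (55.9%) and 45.5% for Flt3-ITD/Runx1-het (78.9%). In lists of equal length they made up 48.6% for NUP98-HOXD13 and 41.9% for Flt3-ITD/NUP98-HOXD13. For Flt3-ITD they were then 51.6%, and for Flt3-ITD/Runx1-het 65.4%. The surplus of gains was thus not kept at a −log10 q of at least 5. That value was reached by 34.0% of the wild-type peaks and by 7.23 to 33.1% of the peaks in the mutant lists. Shares over all regions were not computed at that threshold.

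For the added alleles, Flt3-ITD on Runx1-het gained 54 and lost 9 of 95 H3K4me1 regions, 56.8% and 9.47%, against 48.6% and 21.8% of all regions. Flt3-ITD on NUP98-HOXD13 gained 17 and lost 25 of 74, 23.0% and 33.8%, against 32.1% and 25.1%. The fusion on Flt3-ITD gained 12 and lost 23 of 72, 16.7% and 31.9%, against 30.1% and 28.6%, and Runx1-het on Flt3-ITD gained 44 and lost 18 of 104, 42.3% and 17.3%, against 37.5% and 27.1%. Near these genes the lists with the fusion and Flt3-ITD together had more losses than gains against either single mutant, while over all regions gains were the more frequent in both. Against NUP98-HOXD13 this turned at a −log10 q of at least 5, with 13 gained and 2 lost.

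**Figure D2:**
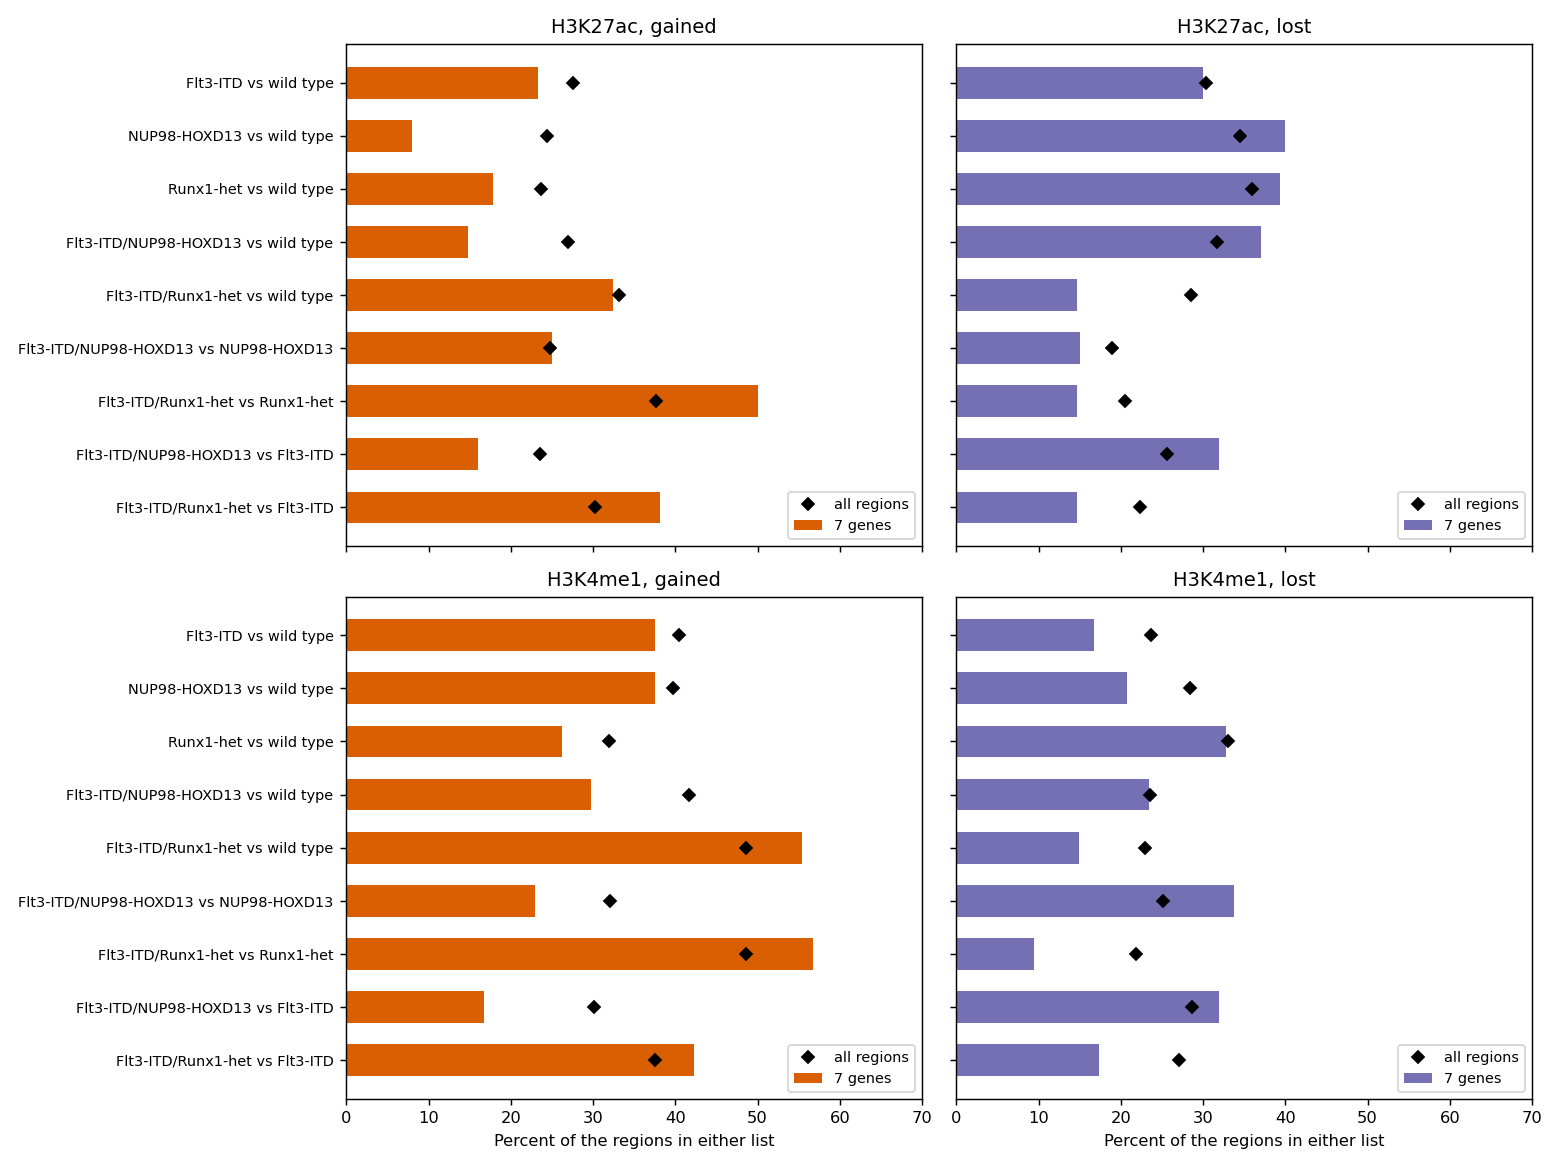
Percent of the regions in either list that were gained (left) or lost (right) in each of 9 comparisons, for H3K27ac (upper panels) and H3K4me1 (lower panels); bars are the regions near the 7 genes and diamonds are all regions. The bar for H3K27ac gained in NUP98-HOXD13 against wild type (8%) ends far short of its diamond (24.4%), and the H3K4me1 gains of Flt3-ITD/Runx1-het (55.4% against wild type) pass theirs (48.6%).

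Gfi1 had the strongest and the most numerous elements. Its gene body lies at chr5:107716657-107726036 on the minus strand, and 4 of its 19 H3K27ac regions were held by every list. The strongest, chr5:107748310-107750531, lies 23.4 kb upstream of the start and overlaps an exon of the neighbouring gene Evi5. Its fold enrichment, the authors' value for the strongest peak over control, was 18.8 for wild type, 20.7 for Flt3-ITD, 12.1 for NUP98-HOXD13, 20.1 for Runx1-het, 15.3 for Flt3-ITD/NUP98-HOXD13 and 15.3 for Flt3-ITD/Runx1-het. Fold values of different lists are not on a common scale, so each was ranked in its own list: these peaks stood at percentiles 98.3, 95.9, 90.7, 95.9, 90.2 and 93.9. The summits of the 6 lists lay within 260 bp of each other.

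A second constant element, chr5:107757892-107760685 in an Evi5 intron 33.3 kb upstream, overlaps the window around 35 kb upstream where a myeloid enhancer of Gfi1 is known. It had fold enrichments of 7.97 for wild type, 8.85 for Flt3-ITD, 5.62 for NUP98-HOXD13, 7.65 for Runx1-het, 5.48 for Flt3-ITD/NUP98-HOXD13 and 7.80 for Flt3-ITD/Runx1-het. The Gfi1 promoter region (chr5:107723973-107728144) had 7.64, 10.4, 7.03, 11.2, 10.3 and 7.44 in the same order, and an element 27.1 kb downstream (chr5:107698029-107699940) had 6.65, 6.96, 4.63, 8.13, 6.52 and 5.66. All 4 were thus present in every genotype, and each had its lowest percentile in a list with the fusion: 90.2 and 61.6 for Flt3-ITD/NUP98-HOXD13 for the elements 23.4 and 33.3 kb upstream, and 77.4 and 57.8 for NUP98-HOXD13 for the promoter and the downstream element. H3K4me1 lay over the distal elements too, with fold enrichments of 5.09 to 8.08 at 23.3 kb upstream and 6.43 to 11.0 at 25.9 kb downstream.

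What differed at Gfi1 was the weaker elements around this frame. The H3K27ac list held 12 of its regions in wild type, 9 for Flt3-ITD, 6 for NUP98-HOXD13, 9 for Runx1-het, 8 for Flt3-ITD/NUP98-HOXD13 and 10 for Flt3-ITD/Runx1-het. NUP98-HOXD13 gained none against wild type and lost 6, those 50.6, 38.1 and 7.7 kb downstream and 21.5, 25 and 43.1 kb upstream, whose wild-type fold enrichments were 3.68, 5.0, 4.0, 4.34, 4.67 and 3.68. In bases rather than regions, H3K27ac peaks covered 12.99 kb in wild type and 8.31 kb in NUP98-HOXD13, while the whole lists covered 28.0 and 34.7 Mb. No H3K27ac gain appeared under any of the other settings tried. The regions that differed fell to 4 in lists of equal length and to 2 at a −log10 q of at least 5.

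H3K4me1 at Gfi1 showed the same contrast with less agreement between measures. Wild type held 24 regions, Flt3-ITD 28, NUP98-HOXD13 14, Runx1-het 22, Flt3-ITD/Runx1-het 24 and Flt3-ITD/NUP98-HOXD13 22. Against wild type, NUP98-HOXD13 again gained 0 and lost 10 of the 24 in either list, 0% and 41.7%. Over all H3K4me1 regions these shares were 39.7% and 28.4%. Yet NUP98-HOXD13 had 34 peaks near Gfi1 and wild type 33, covering 17.72 and 21.00 kb. Several of the NUP98-HOXD13 peaks thus fell inside the same union region. Compared peak by peak, 4 of the 15 peaks that differed were gained (26.7%), and with coverage of at least 0.5 of a region 2 of 13 were (15.4%). Adding Flt3-ITD to the fusion went with 9 gained and 1 lost of 23, 39.1% and 4.35%, against 32.1% and 25.1% of all H3K4me1 regions.

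**Figure D3:**
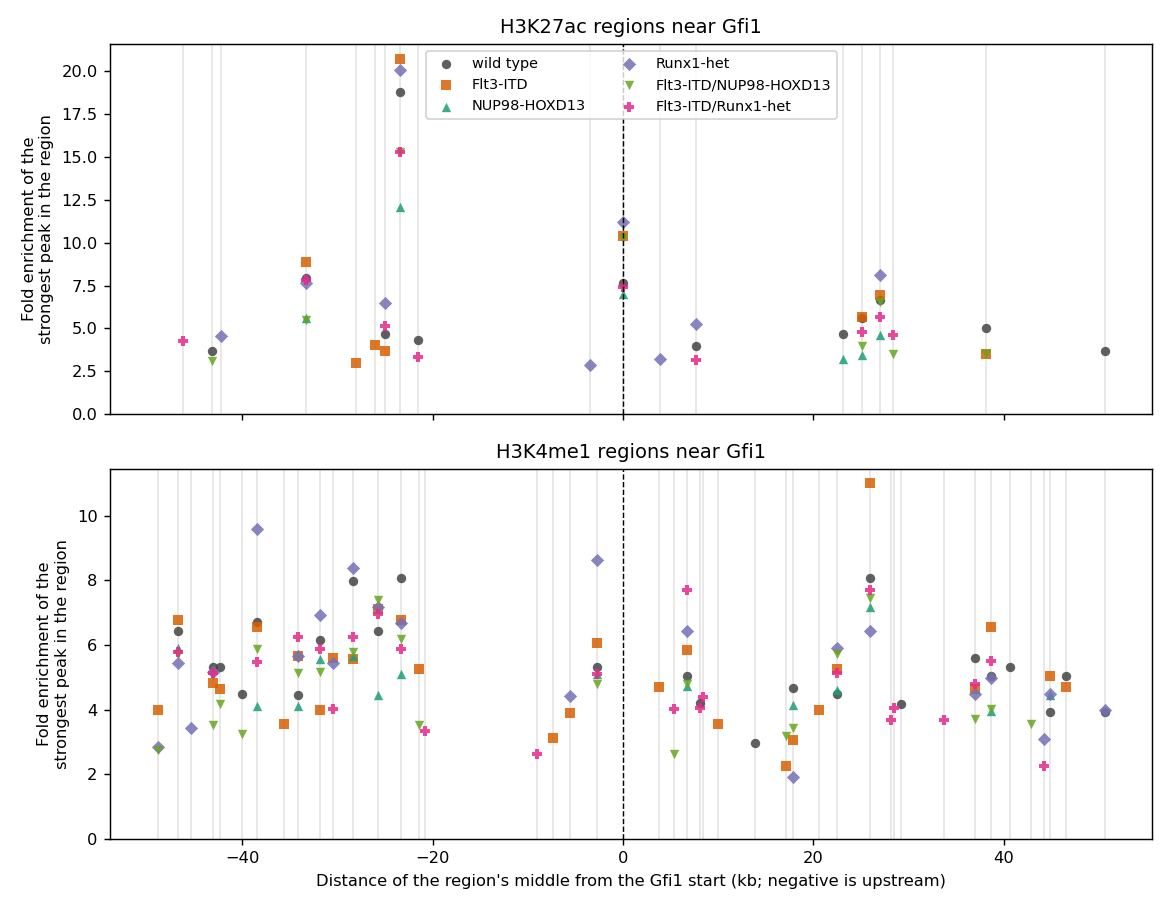
Fold enrichment of the strongest peak (vertical axis) in each union region near Gfi1 against the distance of the region's middle from the Gfi1 start (horizontal axis, kb, negative upstream), for H3K27ac above and H3K4me1 below; each symbol is 1 pooled list and grey lines mark the regions. The H3K27ac region 23.4 kb upstream stands above all others in every list (12.1 to 20.7), and NUP98-HOXD13 triangles are missing from many of the low regions.

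Cebpb, a gene with 1 exon at chr2:167688915-167690418, had the largest surplus of regions among the 7 genes in Flt3-ITD/Runx1-het. H3K27ac regions numbered 5 for wild type, 4 for Flt3-ITD, 4 for NUP98-HOXD13, 4 for Runx1-het, 5 for Flt3-ITD/NUP98-HOXD13 and 10 for Flt3-ITD/Runx1-het, which held every region of the locus. H3K4me1 regions numbered 4, 8, 13, 3, 7 and 23. Flt3-ITD/Runx1-het gained 5 and lost 0 of 10 H3K27ac regions against wild type, where 33.1% and 28.5% of all regions were gained and lost. For H3K4me1 it gained 20 and lost 1 of 24, 83.3% and 4.17%, against 48.6% and 23.0% of all regions. Against Runx1-het it gained 6 and lost 0 of 10 H3K27ac regions, where 37.6% and 20.5% of all regions were gained and lost. For H3K4me1 it gained 20 and lost 0 of 23 against Runx1-het, where these shares of all regions were 48.6% and 21.8%. The Flt3-ITD/Runx1-het H3K4me1 peaks covered 10.48 kb here, against 1.96 kb in wild type and 1.26 kb in Runx1-het, while the whole lists covered 44.6, 35.2 and 38.7 Mb.

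Most of the added H3K27ac regions were weak. The 4 held by Flt3-ITD/Runx1-het alone lay 1.5 kb upstream and 24.9, 28.3 and 47.9 kb downstream, with fold enrichments of 3.70, 3.35, 5.24 and 3.35 at percentiles 30.8, 18.3, 64.3 and 18.3 of the list. In lists of equal length Cebpb kept 7 H3K27ac regions in Flt3-ITD/Runx1-het and 3 for wild type, and 16 and 4 for H3K4me1. At a −log10 q of at least 5 the numbers were 4 and 3, and 5 and 1. The assignment to Cebpb also depends on the start sites used, because a noncoding transcript of Tmem189 begins inside the Cebpb promoter region: with 1 start per gene, its most 5′ one, Cebpb kept 2 of its 10 H3K27ac and 5 of its 27 H3K4me1 regions.

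The core of the Cebpb locus was constant. Its promoter region (chr2:167688368-167690566) had fold enrichments of 6.65 for wild type, 13.3 for Flt3-ITD, 10.9 for NUP98-HOXD13, 10.3 for Runx1-het, 12.1 for Flt3-ITD/NUP98-HOXD13 and 9.94 for Flt3-ITD/Runx1-het, all between percentiles 79.8 and 90.0. An element 9.5 kb downstream, over an exon of the long noncoding RNA gene A530013C23Rik (chr2:167697044-167699695), had 9.37, 10.1, 8.55, 9.53, 10.6 and 7.67 in the same order. Both were among the stronger peaks of every list, the element at percentiles 80.4 to 90.2. H3K4me1 at that element was held by 4 lists and missing from both with Runx1-het, with fold enrichments of 3.56 for wild type, 2.36 for Flt3-ITD, 4.05 for NUP98-HOXD13 and 3.99 for Flt3-ITD/NUP98-HOXD13. In equal-length lists the Flt3-ITD list no longer held it, and at a −log10 q of at least 5 no list did.

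Another constant element 12.7 kb downstream (chr2:167700986-167702201) was uneven. It stood at 6.14 for Flt3-ITD, 6.40 for NUP98-HOXD13 and 6.15 for Flt3-ITD/Runx1-het, but at 2.91 for wild type, 3.30 for Runx1-het and 3.26 for Flt3-ITD/NUP98-HOXD13. The percentiles ran from 4.35 (wild type) to 74.2 (NUP98-HOXD13), the widest range of the constant H3K27ac regions named here. An element 34.9 kb downstream (chr2:167723226-167724448) appeared in the 3 lists with Flt3-ITD and no other, at 4.90 for Flt3-ITD, 3.07 for Flt3-ITD/NUP98-HOXD13 and 3.72 for Flt3-ITD/Runx1-het. It was kept in equal-length lists, and only the Flt3-ITD peak reached a −log10 q of 5.

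**Figure D4:**
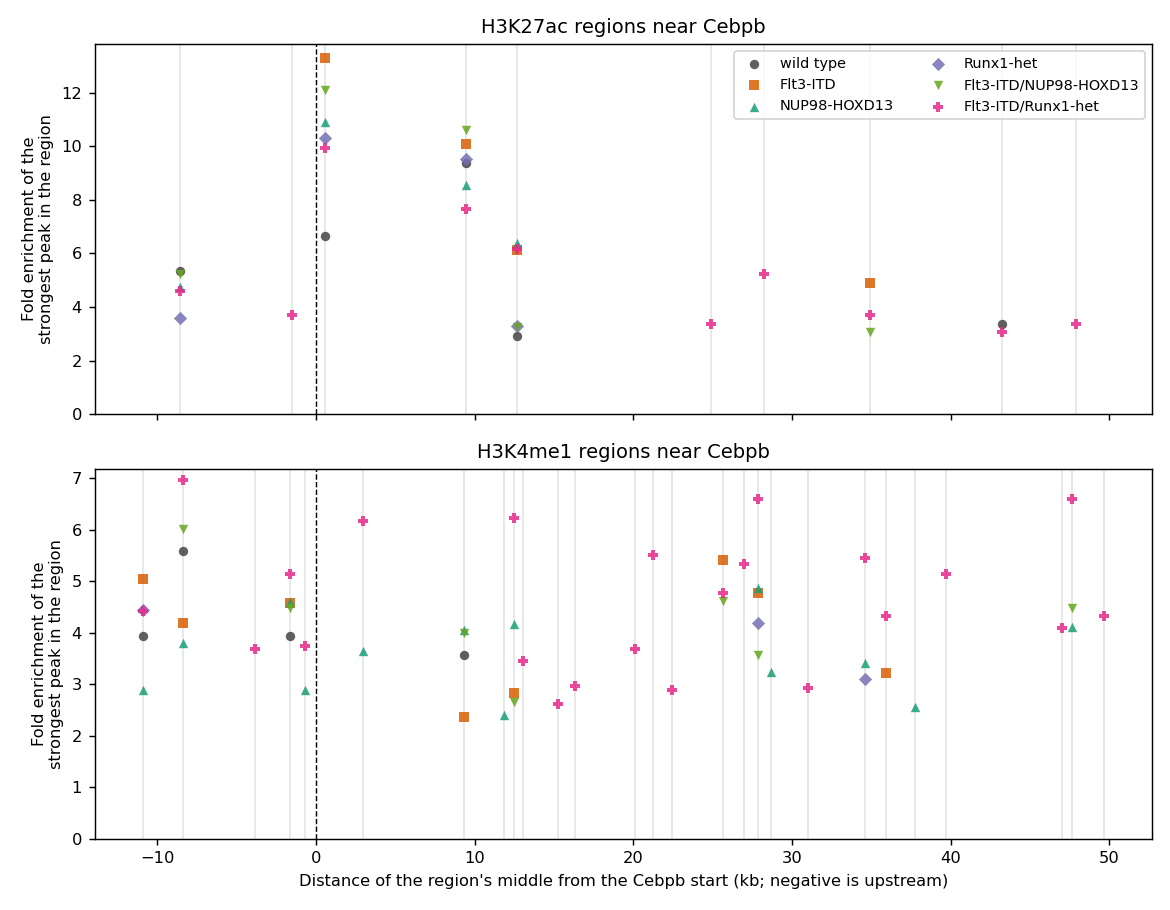
Fold enrichment of the strongest peak (vertical axis) in each union region near Cebpb against the distance of the region's middle from the Cebpb start (horizontal axis, kb, negative upstream), for H3K27ac above and H3K4me1 below; each symbol is 1 pooled list. The promoter and the element 9.5 kb downstream carry H3K27ac in all 6 lists, and many of the H3K4me1 regions hold the Flt3-ITD/Runx1-het symbol, which marks 23 of 27.

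Cebpa, the gene that starts the granulocyte programme, had no peak of either mark within 1 kb of a start in any of the 12 lists. Its most shared H3K27ac region, 8.3 kb downstream (chr7:35127090-35128127), had fold enrichments of 3.68 for wild type, 4.39 for Flt3-ITD, 3.37 for NUP98-HOXD13, 3.65 for Flt3-ITD/NUP98-HOXD13 and 4.06 for Flt3-ITD/Runx1-het, and was missing from Runx1-het. These are low values, at percentiles 23.5 to 48.7 of their lists, and in equal-length lists the wild-type peak dropped out. H3K4me1 lay there (8.4 kb downstream) in all 6 lists, at 4.96 to 6.96. H3K4me1 regions near Cebpa numbered 7 for wild type, 11 for Flt3-ITD, 12 for NUP98-HOXD13, 9 for Runx1-het, 5 for Flt3-ITD/NUP98-HOXD13 and 18 for Flt3-ITD/Runx1-het.

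The enhancer known 37 kb downstream of Cebpa lies nearer to a start of Slc7a10 and so fell outside the rule. The window within 2 kb of it (chr7:35154293-35158293) was examined all the same. It held an H3K27ac peak in 3 lists, at 4.06 for Flt3-ITD, 2.99 for NUP98-HOXD13 and 4.72 for Flt3-ITD/Runx1-het, and none in wild type, Runx1-het or Flt3-ITD/NUP98-HOXD13. H3K4me1 was there in all 6 lists, at 4.69 for wild type, 4.83 for Flt3-ITD, 5.83 for NUP98-HOXD13, 3.70 for Runx1-het, 5.19 for Flt3-ITD/NUP98-HOXD13 and 7.32 for Flt3-ITD/Runx1-het. These are the strongest peaks anywhere in the window and need not mark the same element. The strongest H3K4me1 peak of Flt3-ITD (chr7:35154340-35154875) and that of Flt3-ITD/Runx1-het (chr7:35155118-35156217) did not overlap that of wild type (chr7:35157015-35157340).

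Cebpe, the late granulocyte factor, showed its H3K27ac at 2 places. The region 6.0 kb downstream (chr14:54705343-54706984), at the position of its known enhancer, was held by Flt3-ITD/Runx1-het (5.66), wild type (4.01), NUP98-HOXD13 (3.62) and Flt3-ITD (5.93). A region 0.9 kb upstream (chr14:54712610-54713577) was held by both double mutants and no other list, at 4.18 for Flt3-ITD/NUP98-HOXD13 and 5.13 for Flt3-ITD/Runx1-het. Only the latter peak reached a −log10 q of 5. H3K4me1 at the same upstream place was held by the 5 mutant lists and not by wild type, at 4.41 for Flt3-ITD, 4.44 for NUP98-HOXD13, 5.45 for Runx1-het, 4.33 for Flt3-ITD/NUP98-HOXD13 and 9.50 for Flt3-ITD/Runx1-het, the last at percentile 99.7 of its list.

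Across the whole Cebpe locus, H3K4me1 regions numbered 1 for wild type, 3 for Flt3-ITD, 8 for NUP98-HOXD13, 2 for Runx1-het, 3 for Flt3-ITD/NUP98-HOXD13 and 9 for Flt3-ITD/Runx1-het, of 10 in all. NUP98-HOXD13 gained 7 and lost 0 of 8 against wild type, 87.5% and 0%, against 39.7% and 28.4% of all H3K4me1 regions. Flt3-ITD/Runx1-het gained 8 and lost 0 of 9, 88.9% and 0%, against 48.6% and 23.0%. As wild type held 1 region, at most 1 could be lost. At a −log10 q of at least 5 the numbers were 0 for wild type, 0 for Flt3-ITD, 0 for NUP98-HOXD13, 2 for Runx1-het, 0 for Flt3-ITD/NUP98-HOXD13 and 1 for Flt3-ITD/Runx1-het. That threshold was reached by 7.23% of all NUP98-HOXD13 H3K4me1 peaks and by 34.0% of those in wild type. In lists of equal length NUP98-HOXD13 kept 6 regions and wild type 1. The difference in NUP98-HOXD13 was thus kept in equal-length lists and not at the threshold.

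Cebpd was the member whose promoter lacked H3K27ac peaks in both fusion lists and had them in the other 4. The H3K27ac region over its start (chr16:15886632-15888026) had fold enrichments of 5.33 for wild type, 4.33 for Flt3-ITD, 4.71 for Runx1-het and 3.70 for Flt3-ITD/Runx1-het, and neither list with NUP98-HOXD13 had a peak there. The same pattern, missing from both fusion lists and held by the other 4, was found at 2 of the 44 regions and at 0.439% of all H3K27ac regions. The other was 25 kb upstream of Gfi1 (chr5:107750606-107751386), at 4.67 for wild type, 3.70 for Flt3-ITD, 6.46 for Runx1-het and 5.13 for Flt3-ITD/Runx1-het. Both regions kept the pattern in equal-length lists and lost it at a −log10 q of at least 5. The Cebpd start was then held by wild type, Flt3-ITD and Runx1-het, and the Gfi1 region by Runx1-het and Flt3-ITD/Runx1-het. H3K4me1 just downstream of the Cebpd start, 2.8 kb away, was held by all 6 lists at 5.09 to 7.25, the fusion lists included.

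The Cebpg promoter region was held by every list. This region (chr7:35055081-35057989) had H3K27ac fold enrichments of 6.32 for wild type, 8.85 for Flt3-ITD, 8.18 for NUP98-HOXD13, 5.98 for Runx1-het, 8.21 for Flt3-ITD/NUP98-HOXD13 and 8.15 for Flt3-ITD/Runx1-het. A region 24.6 kb upstream (chr7:35080553-35081871) was held by Flt3-ITD/Runx1-het (3.19), NUP98-HOXD13 (3.49), Flt3-ITD (4.21) and Flt3-ITD/NUP98-HOXD13 (4.18), and not by wild type or Runx1-het. In equal-length lists the Flt3-ITD/Runx1-het peak was lost. H3K4me1 regions near Cebpg numbered 5, 6, 5, 2, 7 and 5 from wild type to Flt3-ITD/Runx1-het, in the order used above.

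**Figure D5:**
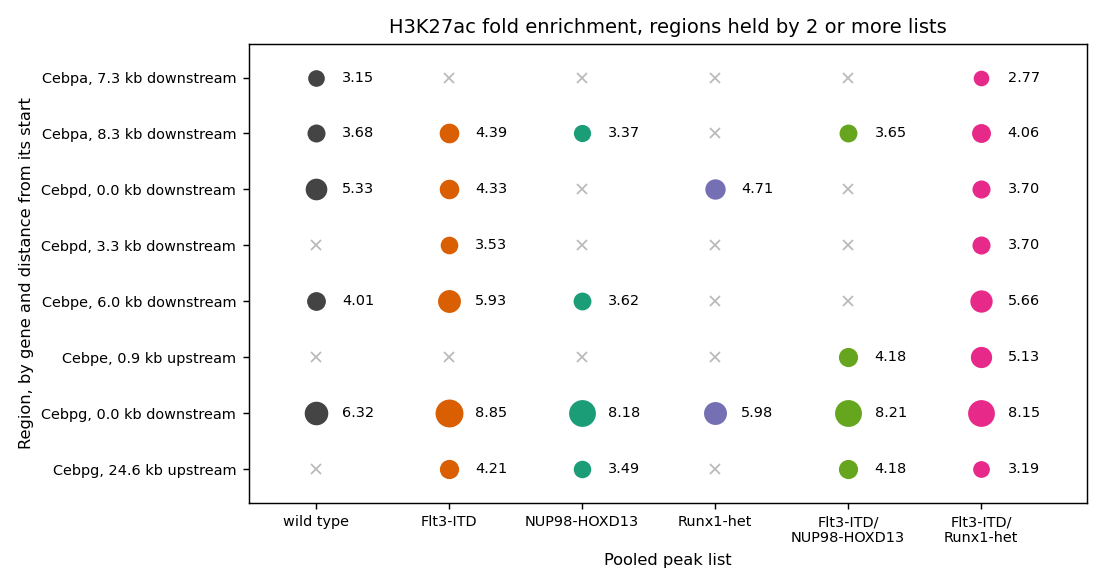
H3K27ac fold enrichment, printed beside each dot and shown by dot area, for the regions near Cebpa, Cebpd, Cebpe and Cebpg that were held by 2 or more lists (rows, by distance from the start), in each pooled list (columns); a cross marks a list without a peak. The Cebpd start has crosses in both lists with NUP98-HOXD13, and the region 0.9 kb upstream of Cebpe has dots only in the double mutants (4.18 and 5.13).

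Gfi1b had H3K4me1 without H3K27ac. Its regions 3.0 kb downstream (chr2:28617641-28620287, in an intron) and 15.5 kb downstream (chr2:28605738-28607211) carried H3K4me1 in all 6 lists. The fold enrichments were 4.76 for wild type, 5.26 for Flt3-ITD, 6.86 for NUP98-HOXD13, 5.63 for Runx1-het, 5.78 for Flt3-ITD/NUP98-HOXD13 and 5.46 for Flt3-ITD/Runx1-het at the first, and 6.70, 4.83, 3.22, 4.23, 5.25 and 6.23 at the second. The second lies in the known enhancer cluster 13 to 17 kb downstream, where no list had H3K27ac. No alternative setting placed an H3K27ac region near this gene.

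At promoters (within 1 kb of a start), H3K27ac was present for 4 of the 7 genes in wild type, 4 for Flt3-ITD, 3 for NUP98-HOXD13, 4 for Runx1-het, 4 for Flt3-ITD/NUP98-HOXD13 and 5 for Flt3-ITD/Runx1-het. Over all protein-coding genes the shares were 40.0%, 43.5%, 45.6%, 39.9%, 45.9% and 46.6%. Cebpb, Cebpg and Gfi1 were in all 6, so the counts differed through Cebpd and Cebpe alone. H3K4me1 lay within 1 kb for 1, 2, 5, 1, 1 and 3 of the 7 genes in the same order, against 23.0%, 30.2%, 31.1%, 22.8%, 32.6% and 32.8% of genes. The Cebpg promoter had it in all 6 lists.

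The marks overlapped to different degrees. Of the H3K4me1 regions near the 7 genes, 15 of 45 (33.3%, exact binomial interval 20.0 to 49.0%) overlapped an H3K27ac peak of the same genotype in wild type, 17 of 60 (28.3%) in Flt3-ITD, 11 of 57 (19.3%, interval 10.0 to 31.9%) in NUP98-HOXD13, 8 of 41 (19.5%) in Runx1-het, 11 of 49 (22.4%) in Flt3-ITD/NUP98-HOXD13 and 26 of 86 (30.2%) in Flt3-ITD/Runx1-het. Over all H3K4me1 regions the shares were 28.7%, 32.5%, 32.1%, 30.8%, 33.0% and 29.8%. The share near the 7 genes was below that of the list in 4 mutants and above it in wild type and Flt3-ITD/Runx1-het. Of the 6, only NUP98-HOXD13 had an exact interval that ended below the list's share, and by a narrow margin (31.9% against 32.1%). The interval covers counting error only and treats regions near the same gene as independent. Each share comes from a pooled list, so this margin is not a test of a difference.

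Some regions were held only by lists that share 1 allele. Held by 2 or more lists with Flt3-ITD and no other were 4 of the 44 H3K27ac regions (3.99% of all regions had this pattern): 0.9 kb upstream of Cebpe, 3.3 kb downstream of Cebpd, 34.9 kb downstream of Cebpb and 28.3 kb downstream of Gfi1. Of these, the regions at Cebpe and Gfi1 were held by both double mutants and not by the Flt3-ITD list. For H3K4me1, regions held by 2 or more lists with Flt3-ITD and no other were 8 of 133, against 5.54%. No region of either mark was held by both lists with NUP98-HOXD13 and no other, a pattern of 1.39% of all H3K27ac and 1.77% of all H3K4me1 regions. For Runx1-het the counts were 0 of 44 and 1 of 133, against 0.573% and 0.769%.

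Genes that act with or below these factors were read from lists. Of 17 granule and neutrophil genes controlled by C/EBP factors or GFI1, 2 had promoter H3K27ac in wild type, 5 for Flt3-ITD, 6 for NUP98-HOXD13, 4 for Runx1-het, 5 for Flt3-ITD/NUP98-HOXD13 and 6 for Flt3-ITD/Runx1-het. Mpo (myeloperoxidase) and Lyz2 (lysozyme) had it in all 6 lists. Prtn3 (proteinase 3) and Csf3r (the G-CSF receptor) had it in the 5 mutant lists and not in wild type, Ctsg (cathepsin G) in all but wild type and Runx1-het, and Ltf (lactoferrin) in Flt3-ITD/Runx1-het and NUP98-HOXD13. The other 11 genes, among them Elane, Camp and S100a8, had none. These were small shares of the list beside the 39.9 to 46.6% of all protein-coding genes with promoter H3K27ac. Regions near the 17 genes were gained and lost against wild type in numbers of 10 and 5 for Flt3-ITD, 9 and 6 for NUP98-HOXD13, 4 and 7 for Runx1-het, 12 and 7 for Flt3-ITD/NUP98-HOXD13 and 17 and 6 for Flt3-ITD/Runx1-het. The gained shares of regions in either list were 43.5%, 40.9%, 23.5%, 48% and 56.7%, against 27.6%, 24.4%, 23.7%, 26.9% and 33.1% of all H3K27ac regions. The lost shares were 21.7%, 27.3%, 41.2%, 28% and 20%, against 30.4%, 34.5%, 36.0%, 31.7% and 28.5%.

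The factors above the 7 genes differed little in promoter H3K27ac and more in the regions around them. Promoters of 16 to 18 of 20 upstream and partner transcription factors, such as Spi1, Runx1 and Myb, carried H3K27ac in every list, as did 6 of 7 GFI1 corepressor genes (all but Rcor2). H3K27ac regions near the 20 factor genes ranged from 95 (Runx1-het) to 151 (Flt3-ITD/Runx1-het), with 136 in wild type. Runx1-het gained 31 and lost 72 of them, 18.6% and 43.1%, against 23.7% and 36.0% of all regions, and Flt3-ITD/Runx1-het gained 73 and lost 58, 34.9% and 27.8%, against 33.1% and 28.5%. Among 8 genes for C/EBP dimer partners and degraders, the count was 4 for wild type, 5 for Flt3-ITD, 7 for NUP98-HOXD13, 5 for Runx1-het, 7 for Flt3-ITD/NUP98-HOXD13 and 5 for Flt3-ITD/Runx1-het. Trib2, which directs C/EBPα to degradation, had promoter H3K27ac in both lists with NUP98-HOXD13 and in no other, and its relative Trib1 had it in all 6. Nfil3 had it in both fusion lists and in Flt3-ITD/Runx1-het, and Batf in 4 mutant lists.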

How the data were processed

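H3K27ac and H3K4me1 were measured in 39 samples of 12 groups, taken from the sample labels, and 1 input sample was not analysed here. The submitters' processing notes name BWA, MACS2 and the build mm10 (GRCm38), and no versions. The authors deposited 1 pooled peak list per group. For every peak the deposited lists hold a score, a ratio (the authors' fold enrichment), the −log10 p and −log10 q, and the summit position. The deposited fold was used only within its list. Read depth is unknown, and binomial intervals (95%, Clopper-Pearson) cover counting error only.

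Peaks of the 6 lists of a mark were merged (1 bp overlap), and each union region was assigned to the gene that owns the nearest of 54368 protein-coding transcript starts (GENCODE mouse release 21, 21862 genes) within 50 kb. Python 3.11.15, pandas 2.3.3, numpy 2.4.6 and scipy 1.17.1 were used. Pooled lists allow no test, so no p-value is given. The procedure was tested on simulated data. Alternatives were equal-length lists (31978 and 72682 peaks by −log10 p), a −log10 q of at least 5, starts within 25 or 100 kb, coverage of at least 0.5 of a region, 1 start per gene, peaks compared directly and promoters of 2 kb. Leaving out the wild-type list was added after seeing the data.

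The members, gene lists, markers and motifs were chosen with earlier results of these data known. Named regions are, per gene and mark, up to 6 with the highest fold, those held only by lists sharing 1 allele and those at known elements. Others named were chosen after their values were seen. Of the 7 genes, 5 matched a RefSeq promoter entry, and Cebpd and Cebpe are missing entries. The Gfi1 entry left too short a stretch upstream of all its protein-coding starts and is not shown. Azu1, of the granule list, was not found in the annotation.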

Additional observations from a re-analysis of the deposited data

Results flagged for a closer look

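The net number of H3K4me1 regions gained with Flt3-ITD had opposite signs on different backgrounds. Near Cebpa, gained minus lost was 4 on wild type and 9 on Runx1-het, but -7 on NUP98-HOXD13. Near Cebpb it was 4, 20 and -6, and near Cebpe 2, 7 and -5, in the same order. Over the 7 genes it was 15 on wild type, 45 on Runx1-het and -8 on NUP98-HOXD13. On wild type 37.5% of the regions near the 7 genes were gained and 16.7% lost, against 40.5% and 23.7% of all regions. On Runx1-het these shares were 56.8% and 9.47%, against 48.6% and 21.8%. On NUP98-HOXD13 they were 23.0% and 33.8%, against 32.1% and 25.1%. Over all regions gains thus outnumbered losses on each background. The net counts were picked out because 1 background gained and another lost at least 3 regions net. The difference between backgrounds was not tested, since each list is 1 pool. In the NUP98-HOXD13 list 7.23% of H3K4me1 peaks reached a −log10 q of 5, against 17.5 to 34.0% in the others. With only peaks past that value the signs over the 7 genes turned on 2 backgrounds: 6 regions were gained and 14 lost on wild type, and 13 gained and 2 lost on NUP98-HOXD13, while 12 were gained and 8 lost on Runx1-het. On NUP98-HOXD13, Cebpa then had 2 gained and 1 lost, and Cebpb 1 gained and 0 lost. The opposite signs were thus not kept at that threshold.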

How the results depend on the processing

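No paired analysis was possible because each group is 1 pooled list without numbered samples, and no sample could be left out. Of 274 alternative values of the main counts and shares, 225 stayed near the value reported, 47 moved and 2 changed sides; of 667 for single genes, 582, 82 and 3. The alternative added after seeing the data, without the wild-type list, moved none. Of 126 gained shares near the 7 genes, 17 fell on the other side of 50% from the value reported, 10 for H3K27ac and 7 for H3K4me1, some inside its interval; for H3K27ac of Flt3-ITD against wild type these included 54.5% with starts within 100 kb, and with coverage of at least 0.5 they were 61.1% for Flt3-ITD and 52.6% for Runx1-het. Where no cause is named, the cause was not tested.

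The setting with most moves was a −log10 q of at least 5, which leaves fewer peaks. H3K27ac regions near the 7 genes were then 10 for wild type, 8 for NUP98-HOXD13, 11 for Runx1-het, 8 for Flt3-ITD/NUP98-HOXD13 and 12 for Flt3-ITD/Runx1-het, and gained shares 83.3% for Flt3-ITD, 60.0% for Runx1-het and 0% for Flt3-ITD/NUP98-HOXD13 against wild type, and 37.5% for Flt3-ITD/Runx1-het against Flt3-ITD. H3K4me1 regions were 27 for wild type, 19 for Flt3-ITD, 5 for NUP98-HOXD13, 21 for Runx1-het, 16 for Flt3-ITD/NUP98-HOXD13 and 25 for Flt3-ITD/Runx1-het. Their gained shares against wild type were 30.0% for Flt3-ITD and 45.5% for Flt3-ITD/Runx1-het, both reversed, 7.69% for NUP98-HOXD13 and 21.1% for Flt3-ITD/NUP98-HOXD13, and 86.7% and 60.0% for the double mutants against NUP98-HOXD13 and Runx1-het. Promoter H3K4me1 was at 0 members in Flt3-ITD, 1 for NUP98-HOXD13 and 0 for Flt3-ITD/NUP98-HOXD13, and the wild-type share with both marks was 14.8%. Single-gene shares reversed at this threshold for Cebpa in Flt3-ITD/NUP98-HOXD13 against NUP98-HOXD13 (66.7%), Cebpb in NUP98-HOXD13 against wild type (0%) and Cebpe in Flt3-ITD/Runx1-het against Runx1-het (0%).

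In equal-length lists, H3K4me1 gained shares were 51.6% for Flt3-ITD and 65.4% for Flt3-ITD/Runx1-het against wild type and 72.7% for Flt3-ITD/Runx1-het against Runx1-het, and 1 member had promoter H3K4me1 for Flt3-ITD. With starts within 100 kb, H3K27ac regions were 26 for NUP98-HOXD13 and 26 for Flt3-ITD/NUP98-HOXD13. Within 25 kb, H3K4me1 regions were 26 for wild type, 38 for Flt3-ITD, 22 for Runx1-het, 30 for Flt3-ITD/NUP98-HOXD13 and 55 for Flt3-ITD/Runx1-het, and the gained share of NUP98-HOXD13 against wild type was 80.0%. With coverage of at least 0.5, wild type held 14 H3K27ac and 29 H3K4me1 regions, and shares with both marks were 8.89% for wild type, 16.7% for Flt3-ITD, 4.88% for Runx1-het and 16.3% for Flt3-ITD/Runx1-het. Counted as peaks, NUP98-HOXD13 had 86 for H3K4me1. With promoters of 2 kb, H3K4me1 lay at 4 members in wild type, 7 for Flt3-ITD, 5 for Runx1-het, 6 for Flt3-ITD/NUP98-HOXD13 and 6 for Flt3-ITD/Runx1-het.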

Other observations

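The genes whose region counts over the 12 lists were closest to those of each member, by the summed absolute difference, were mostly without a known tie to granulocytes. Only genes with 0.5 to 2 times the member's union regions were compared. For Gfi1 they were Atp10a, Cul3 and Susd6, all at 24, and for Cebpb 1700001C19Rik, Irgm2 and Zc3h12a, all at 19. For Cebpa they were Pemt at 13 and Cox4i2 and Id2 at 15. For the genes with few regions the distances were small, as with Nap1l5 at 3 for Cebpd, Fcho1 and Mfng at 6 for Cebpe, Ppie at 5 for Cebpg and Sdhaf1 at 2 for Gfi1b. All genes were compared over the same 12 lists, which differ in length, so these likenesses are descriptions only.

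H3K4me1 that was missing from both lists with Runx1-het and held by the other 4 was found at 2 of the 133 regions, against 0.507% of all H3K4me1 regions. They lay 9.3 kb downstream of Cebpb and 28.7 kb upstream of Cebpg (chr7:35084866-35085728), the latter with fold enrichments of 5.04 for wild type, 4.41 for Flt3-ITD, 4.92 for NUP98-HOXD13 and 3.87 for Flt3-ITD/NUP98-HOXD13. A region 29.5 kb downstream of Cebpa (chr7:35148242-35149272) was missing from both lists with NUP98-HOXD13 and held by the other 4, at 3.10 for wild type, 3.98 for Flt3-ITD, 3.99 for Runx1-het and 4.78 for Flt3-ITD/Runx1-het, a pattern of 0.378% of all H3K4me1 regions. In equal-length lists the regions near Cebpg and Cebpa kept their patterns, and the Cebpb region was no longer held by Flt3-ITD. At a −log10 q of at least 5 none kept its pattern. The Cebpg region was then held by wild type only, and those near Cebpb and Cebpa by no list.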
